A study of Mus musculus with 16 samples.

Results

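Both mature arms of the miR-342 hairpin, mmu-miR-342-3p and mmu-miR-342-5p, were examined in small RNA libraries of mouse prefrontal cortex. They were chosen by name, as 2 of the 18488 features of the small RNA table and 2 of its 1241 mature miRNAs, with their measured level and their difference between PS19 and WT in view. These values are therefore given as a description, with no test of the genotype difference of either arm or of their ratio. The row of the precursor, mmu-mir-342, was added because it belongs to the same hairpin. Libraries came from 8 PS19 mice (PS19+/-), heterozygous for a mutant human tau (MAPT) transgene driven by the mouse prion protein promoter, and from 8 WT littermates, on a mixed C57BL/6 and C3H background, with both sexes in equal number per group. Each library came from a separate mouse, perfused before the cortex was taken. They were adult mice, whose age is stated by the study and not by the labels. Libraries are named by genotype and the replicate number of the sample title. The prion protein promoter is active in neurons and also in other cell types, so the transgene is not restricted to a single cell type.

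MicroRNAs are cut from a hairpin transcript as a duplex of a 5p and a 3p strand. In most hairpins a single strand is kept by an Argonaute protein and guides it to mRNAs through the seed, bases 2 to 8 of the strand, while the other strand is mostly degraded. The miR-342 hairpin lies in an intron of Evl, a gene that encodes an Ena/VASP protein of the actin cytoskeleton, and shares the transcript of its host. It is known from neurons of the cortex and from blood cells, where it has been studied in myeloid and lymphoid differentiation.

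The sequences of both strands are shown because they are close in length but carry unrelated seeds. They were taken from RefSeq (GRCm38.p6), the same assembly as the mm10 build named in the submitters' processing notes. The seed is in capitals.
mmu-miR-342-3p: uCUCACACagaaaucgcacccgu
mmu-miR-342-5p: aGGGGUGCuaucugugauugag
The 3p strand has 23 nt and the 5p strand 22 nt. No other mature miRNA among the 1738 mature sequences in that table shares either seed (0 for each), so neither arm has a seed family there. The hairpin itself is shown to place the strands, which are in capitals, 5p first.
Mir342 hairpin: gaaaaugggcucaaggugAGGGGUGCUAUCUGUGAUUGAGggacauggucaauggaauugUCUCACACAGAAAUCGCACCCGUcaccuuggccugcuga
It spans 99 nt on the plus strand of chromosome 12, chr12:108658620-108658718, with 20 nt between the strands. The 5p strand covers chr12:108658638-108658659 and the 3p strand chr12:108658680-108658702. In GENCODE release M21 the hairpin lies within an intron of 20189 bp of Evl (chr12:108653100-108673288) in 5 of the 7 annotated transcripts, as the 3rd intron of Evl-202, on the strand of the gene, and overlaps no exon of Evl (0 exons).

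Between 13.2 M and 23.1 M reads were recovered in a library. The cortex label was checked against miRNA markers. The brain miRNAs mmu-miR-128-3p, mmu-miR-9-5p and mmu-miR-124-3p ranked 3, 7 and 42 among the 1241 mature miRNAs by mean normalized count. The red cell miRNA mmu-miR-144-3p had a median of 0 and mmu-miR-451a one of 13.4, while the liver miRNA mmu-miR-122-5p had a median of 259.8 and the muscle miRNA mmu-miR-1a-3p one of 6230. The other muscle miRNAs, mmu-miR-133a-3p and mmu-miR-206-3p, had medians of 12.7 and 300.5. Muscle and liver miRNAs were thus present in these cortex libraries, and mmu-miR-1a-3p exceeded both arms of miR-342. Their part in the results below was not tested.

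The level of each arm was described first, as the normalized count, which is the read count divided by 1 size factor per library. mmu-miR-342-3p averaged 925.6 ± 341.8 (SD, n = 16) and ranked 129 of the 1241 mature miRNAs, next to mmu-miR-183-5p at 955.5 and mmu-miR-338-5p at 924.2. mmu-miR-342-5p averaged 143.1 ± 78.2 (SD, n = 16) and ranked 233, next to mmu-miR-210-3p at 143.7 and mmu-miR-700-3p at 140.1. These neighbours in rank differed from the arms by far less than the spread over the libraries. Of the 1241 mature miRNAs, 521 had a mean of at least 5 and were tested, and 5p stood near the middle of these. The label abundant thus held for 3p by rank and not for 5p, and the arms carried 0.0208% and 0.00321% of the signal of all mature miRNAs. The precursor row averaged 55.8 ± 19.2 (SD, n = 16). Because it was lower than either arm on average, reads of the mature strands cannot all have been counted a second time under it.

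The depth behind each row sets its precision. mmu-miR-342-3p rested on 578 to 1713 reads per library, which gives a counting error of 2.42% to 4.16%. mmu-miR-342-5p rested on 69 to 332 reads (5.49% to 12.0%) and the precursor row on 33 to 99 reads (10.1% to 17.4%). The coefficients of variation over the 16 libraries were 36.9%, 54.6% and 34.4%, so counting error made up a small part of the spread of both arms. These errors cover counting alone, since reads carried no molecular identifiers.

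mmu-miR-342-3p had a lower mean in PS19 than in WT. In PS19 its normalized count was lowest at 436.6 (replicate 8), had a median of 690.3 and was highest at 1106 (replicate 1). In WT it was lowest at 480.9 (replicate 7), had a median of 1213 and was highest at 1465 (replicate 3). All 8 PS19 libraries lay below the WT median, and 6 of 8 WT libraries lay above every PS19 library. The groups nevertheless overlapped, because WT replicates 7 and 6 (578.3) fell among the lower PS19 libraries. The mean of the 8 PS19 libraries was 762.5 ± 240.0 (SD, n = 8), that of the WT libraries was 1089 ± 363.3 (SD, n = 8), and the log2 difference was -0.48 ± 0.26 (SE), a fold of 0.716. Within groups the SD on the log2 scale was 0.54, which is larger than that difference. In bulk cortex, fewer cells of a type and less RNA per cell cannot be told apart.

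mmu-miR-342-5p showed nearly equal group means and a wider spread. In PS19 it was lowest at 41.1 (replicate 7), had a median of 136.5 and was highest at 283.8 (replicate 1). In WT it was lowest at 73.6 (replicate 7), had a median of 105.3 and was highest at 284.0 (replicate 3). The highest libraries of the groups thus matched, while the WT median was below the PS19 median. PS19 averaged 139.8 ± 76.5 (SD, n = 8), WT averaged 146.5 ± 85.0 (SD, n = 8), and the log2 difference was -0.08 ± 0.37 (SE). With every RNA class set to an equal total it was -0.03 ± 0.25 (SE), so the error depended on the scaling. The sign of that difference rested on single libraries and turned positive without PS19 replicate 7 (0.14), WT replicate 3 (0.08), WT replicate 1 (0.06) or PS19 replicate 8 (0.04).

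The precursor row lay between the arms in its difference. PS19 libraries ranged from 30.7 to 83.0 with a median of 45.7, and WT libraries from 31.8 to 84.7 with a median of 63.5. The range was thus nearly the same in both groups, and 6 of 8 PS19 libraries were below the WT median. The log2 difference was -0.26 ± 0.26 (SE), and -0.17 without PS19 replicate 8.

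**Figure D1:**
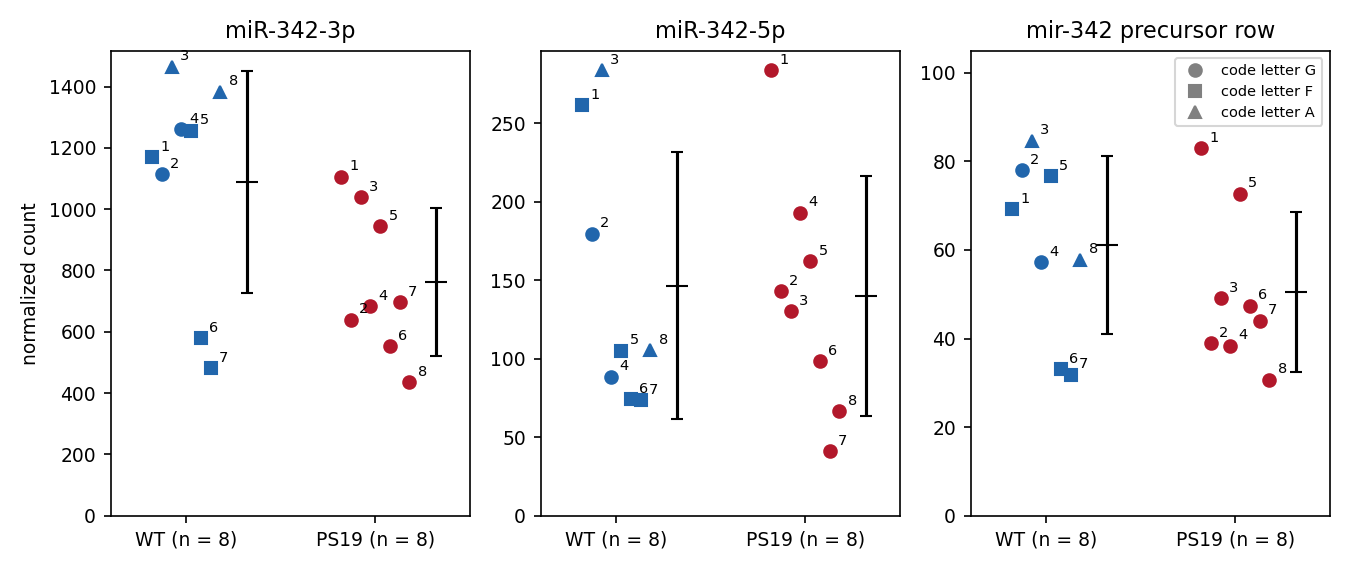
Normalized counts of miR-342-3p, miR-342-5p and the mir-342 precursor row in each library (numbers are replicates, marker shapes are the first letter of the library code), with mean and SD beside each group of 8. The 3p arm of 6 of 8 WT libraries sits above all PS19 libraries, WT replicates 6 and 7 sit at 578.3 and 480.9, and the 5p and precursor groups overlap over most of their range.

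Across all features, genotype was compared with limma on log2(value + 1). Of 6024 features tested, 0 (0%) had an adjusted p-value under 0.05, while 112 (1.86%) were higher and 129 (2.14%) lower in PS19 at an unadjusted p-value under 0.05, a split that became 107 and 76 when libraries were scaled to their total. DESeq2 on recovered reads gave 15 features (0.249%) at an adjusted p-value under 0.05, with 283 (4.70%) unadjusted, and edgeR gave 0, with 265 (4.40%) unadjusted.

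The balance of the arms is computed from the same values and is likewise described without a test between genotypes. In PS19 mmu-miR-342-3p exceeded mmu-miR-342-5p from 3.55-fold (replicate 4) to 17.0-fold (replicate 7), with a median of 5.72-fold. In WT the excess ran from 4.48-fold (replicate 1) to 14.3-fold (replicate 4), with a median of 7.17-fold. The 3p strand was the higher in all 16 libraries. The share of 3p in the reads of both arms was lowest in PS19 replicate 4 at 78.0% (95% exact binomial interval 75.0% to 80.8%) and highest in PS19 replicate 7 at 94.4% (93.0% to 95.6%), both of the same genotype. PS19 libraries had a mean log2 ratio of 3p over 5p of 2.58 ± 0.71 (SD, n = 8), and WT libraries one of 2.98 ± 0.64 (SD, n = 8). The difference of -0.40 was smaller than either SD, and it was -0.61 without PS19 replicate 7, the library with the largest ratio. Of the summed signal of the 3 rows, the precursor row held 5.37% ± 0.962 (SD, n = 8) in PS19, against 4.79% ± 0.674 (SD, n = 8) in WT.

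**Figure D2:**
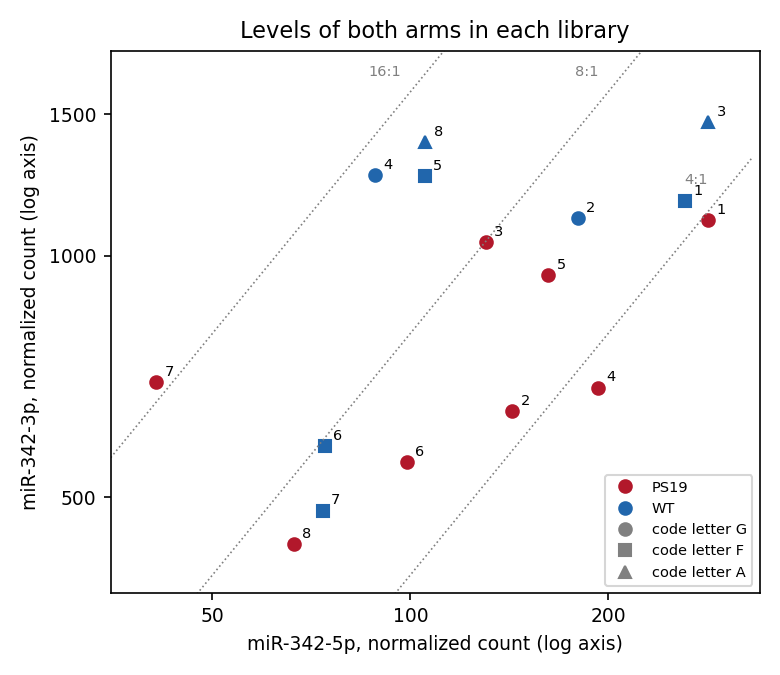
Normalized count of miR-342-3p against that of miR-342-5p in each of the 16 libraries, both on log axes, with dotted lines at ratios of 4:1, 8:1 and 16:1. Libraries of both genotypes spread across the ratio lines, from 3.55-fold in PS19 replicate 4 to 17.0-fold in PS19 replicate 7.

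The arms were then compared with those of other hairpins. Among 121 hairpins with both arms at a mean of at least 5, the 3p arm was the higher in 61. The mean log2 ratio of 2.78 for mir-342 was not extreme, since 71 of the 121 had a larger absolute ratio, and the median absolute ratio was 3.50 on the log2 scale. The SD of the ratio over the 16 libraries was 0.68 for mir-342 against a median of 0.51, and 27 hairpins had a larger SD. The 3p strand of mir-342 starts with U and the 5p strand with A. Of 99 hairpins with RefSeq sequences for both arms, the higher arm started with U in 41 (41.4%) and the lower arm in 35 (35.4%).

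The normalized counts of the arms were correlated across libraries, less closely than in most hairpins. Over the 16 libraries the correlation between mmu-miR-342-3p and mmu-miR-342-5p on the log2 scale was r = 0.55 (permutation p = 0.0275, adjusted p = 0.0321 over 7 relations), with Spearman's rho = 0.52 (permutation p = 0.0410, adjusted p = 0.0479). It was 0.42 without the 2 libraries farthest from the median of 3p, 0.59 within PS19 and 0.60 within WT. The median over the 121 hairpins was 0.74, and 91 of them had a higher r than mir-342. The precursor row followed 3p more closely, at r = 0.87 (permutation p = 6e-05, adjusted p = 4.2e-04) and rho = 0.82 (permutation p = 1.9e-04, adjusted p = 0.00112), with 0.81 without the 2 farthest libraries, 0.83 within PS19 and 0.91 within WT. For the precursor row and 5p it was r = 0.66 (permutation p = 0.00670, adjusted p = 0.0154) and rho = 0.70 (permutation p = 0.00361, adjusted p = 0.00580), with 0.64 without the 2 farthest, 0.57 within PS19 and 0.77 within WT. Rows of the same library share its size factor and its share of miRNA reads, which enter each of these correlations. The p-values therefore do not separate a relation particular to this hairpin from such an effect of the whole library.

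**Figure D3:**
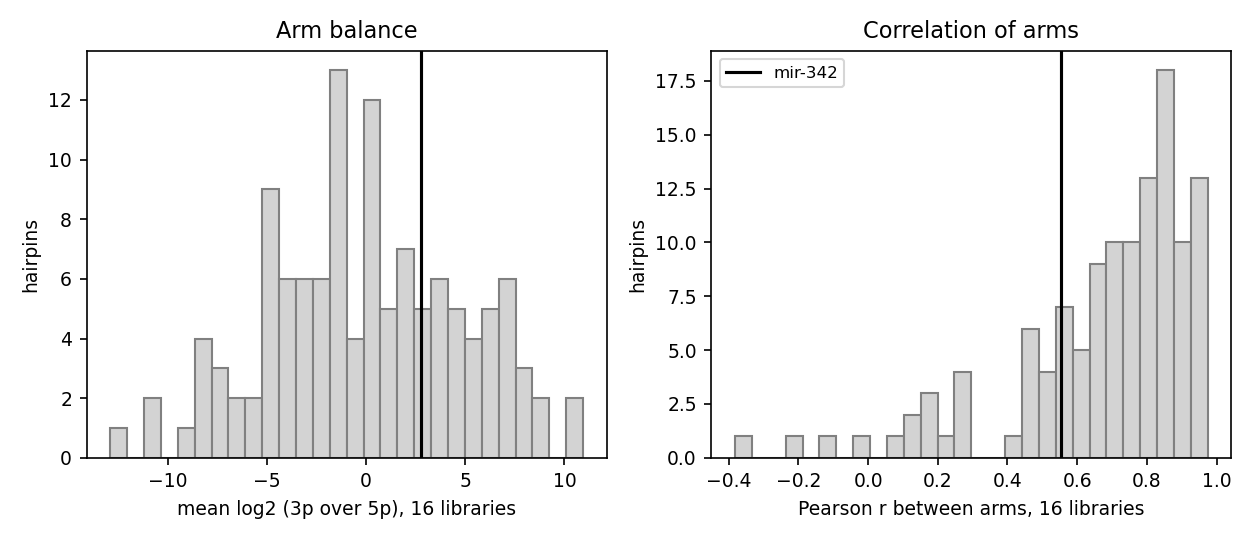
Histograms over 121 hairpins with both arms at a mean of at least 5, showing the mean log2 ratio of the 3p over the 5p arm and the Pearson r between the arms over 16 libraries. The black lines mark mir-342, at a ratio of 2.78 and an r of 0.55, with 91 hairpins at a higher r.

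The features most like each arm across the 16 libraries were different ones. For mmu-miR-342-3p they were mmu-miR-148b-3p (r = 0.95), mmu-miR-335-5p (0.95), mmu-miR-369-3p (0.95), mmu-miR-380-5p (0.94) and mmu-miR-3068-5p (0.93), all mature miRNAs. For mmu-miR-342-5p they were mmu-let-7e-5p (r = 0.96), mmu-miR-125a-3p (0.96), mmu_circ_0004039 (0.93), mmu-miR-501-3p (0.92) and the precursor row mmu-let-7d (0.92). Among the 6024 tested features, 5p ranked 830 in likeness to 3p, and 3p ranked 940 in likeness to 5p. The precursor row ranked 43 in likeness to 3p and 557 in likeness to 5p. No row had values identical to either arm (0 rows). The log2 differences by genotype of the 5 features most like 3p ran from -0.78 (mmu-miR-335-5p) to -0.36 (mmu-miR-148b-3p), and those of the 5 most like 5p from -0.12 (mmu_circ_0004039) to 0.01 (mmu-miR-501-3p). These differences follow in part from the choice of the features, since r was taken over all libraries of both genotypes. The correlations are a description over 16 libraries that share the authors' normalization.

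The normalized counts of both arms rose with the share of each library taken by miRNA. All RNA classes of a library are divided by the same size factor, so a larger share tends to raise miRNA rows in general. The p-values below are set against no relation. The r of other miRNAs with the share was not computed, so the relation is not shown to be particular to miR-342. Reads assigned to miRNA rows made up from 15.0% (WT replicate 7) to 32.6% (WT replicate 3) of recovered reads, with 95% Wilson intervals narrower than the last digit given. Its mean was 25.5% ± 5.40 (SD, n = 8) over PS19 and 26.3% ± 6.24 (SD, n = 8) over WT libraries (exact permutation, two-sided p = 0.782). Its correlation with the log2 level of mmu-miR-342-3p was r = 0.79 (permutation p = 5.0e-04, adjusted p = 0.00175) and rho = 0.81 (permutation p = 3.2e-04, adjusted p = 0.00112), with 0.71 without the 2 farthest libraries, 0.72 within PS19 and 0.93 within WT. For mmu-miR-342-5p it was r = 0.63 (permutation p = 0.00881, adjusted p = 0.0154) and rho = 0.69 (permutation p = 0.00414, adjusted p = 0.00580), with 0.55 without the 2 farthest libraries, 0.79 within PS19 and 0.50 within WT. For the precursor row it was r = 0.62 (permutation p = 0.0128, adjusted p = 0.0179) and rho = 0.70 (permutation p = 0.00293, adjusted p = 0.00580), with 0.47 without the 2 farthest libraries, 0.49 within PS19 and 0.72 within WT. No relation of the arm ratio to the share was detectable when genotypes were pooled (r = -0.08, permutation p = 0.771, adjusted p = 0.771, and rho = -0.19, permutation p = 0.486, adjusted p = 0.486) over all 16 libraries, where r was -0.50 within PS19 and 0.27 within WT. WT replicates 6 and 7, in which 3p was lowest among WT, had shares of 20.4% and 15.0%.

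Levels were therefore also expressed as miRNA CPM, the reads of a row scaled to an equal total of miRNA reads in every library. On this scale PS19 libraries ran from 118.4 to 275.7 miRNA CPM of mmu-miR-342-3p, with a median of 160.6, and WT libraries from 171.4 to 301.5, with a median of 231.7. WT replicates 6 and 7 stood at 215.3 and 211.7 and no longer apart from the other WT libraries, and 5 of 8 PS19 libraries lay below every WT library. PS19 replicates 5 (275.7) and 7 (253.4) were above the WT median, so that 6 of 8 PS19 libraries lay below it and 2 of 8 WT libraries lay above every PS19 library. The log2 difference was -0.43 ± 0.18 (SE) when every RNA class was set to an equal total. mmu-miR-342-5p had a median of 30.0 miRNA CPM in both groups, with PS19 libraries between 14.9 and 47.3 and WT libraries between 17.8 and 44.2. On this scale the arms did not rise together throughout. PS19 replicate 5 was the highest PS19 library in both arms. In WT, replicate 8 was highest in 3p (301.5) with 5p at 23.0, and replicate 1 was lowest in 3p (171.4) with 5p at 38.3. The correlation of the arms was not computed on this scale. The part of the miRNA share in the lower mean of 3p in PS19 was not tested beyond this rescaling.

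**Figure D4:**
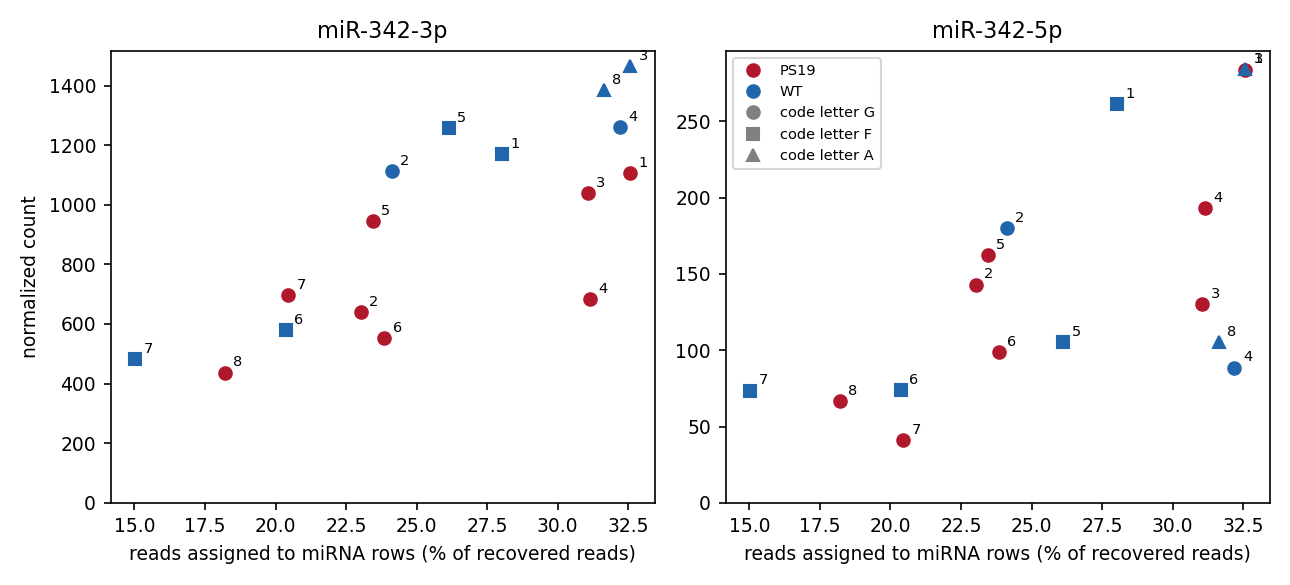
Normalized counts of miR-342-3p and miR-342-5p against the percentage of recovered reads assigned to miRNA rows in each library. Levels of 3p rise with the share (r = 0.79), WT replicate 7 has the lowest share at 15.0%, and in the 5p panel the points of PS19 replicate 1 and WT replicate 3 coincide near 284.

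The library code of the labels began with G in all 8 PS19 libraries and in 2 WT libraries, replicates 2 and 4. The meaning of the letter is not given in the sources used here. These WT libraries held 3p at 1113 and 1261, above the highest PS19 library at 1106, and 5p at 179.7 and 88.5, within the PS19 range. The gap between 1113 and 1106 is smaller than the counting error of either library (2.92% and 3.63%). In miRNA CPM this separation of 3p was lost. WT replicates 2 and 4 stood at 235.2 and 253.6, both below PS19 replicate 5 (275.7), and WT replicate 2 also below PS19 replicate 7 (253.4). Among the 10 libraries with this letter the log2 ratio of the arms differed by -0.64 between the 8 PS19 and 2 WT libraries. With the letter as a term the log2 difference of 3p was -0.70 ± 0.40 (SE). Genotype and the other letters cannot be told apart, because no PS19 library carried F or A.

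Other miRNAs of the same kinds were viewed by lists. The first held 21 miRNAs that, like mir-342 in Evl, are processed from an intron of a protein-coding gene. Of these, 19 passed the filter on low values, and 0 had an unadjusted p-value under 0.05 in limma, against 1.86% of all features higher and 2.14% lower. DESeq2 and edgeR each gave 1 of 19, mmu-miR-335-5p, which is hosted by the imprinted gene Mest, against 4.70% and 4.40% of all features. In limma mmu-miR-335-5p had a log2 difference of -0.78 ± 0.44 (SE) and mmu-miR-340-5p, hosted by Rnf130, one of -0.45 ± 0.34 (SE), neither past the test. The median log2 difference of the 19 was -0.14, with 14 negative, beside a median of -0.13 over the 521 tested mature miRNAs, of which 346 were negative, and -0.02 over all features. The value of -0.48 for mmu-miR-342-3p lies within the range of this list, from -0.78 to 0.19, but near its low end. Only mmu-miR-335-5p was lower among the tested members.

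The second list held 10 miRNAs of blood and immune cells, of which 7 passed the filter. In limma 1 of them (mmu-miR-155-5p, which is induced in activated macrophages and lymphocytes) had an unadjusted p-value under 0.05 with a log2 difference of 0.78 ± 0.30 (SE), with an adjusted p of 0.9998. DESeq2 and edgeR also gave 1 of 7, the same miRNA. Over all features the unadjusted shares were 1.86% higher and 2.14% lower in limma, 4.70% in DESeq2 and 4.40% in edgeR. The next by size, the red cell miRNA mmu-miR-451a, had a log2 difference of 0.52 ± 0.43 (SE) and did not pass. The median of the list was 0.12. Mean levels in the list ran from 2.26 for mmu-miR-142a-5p to 9838 for mmu-miR-146b-5p. Low members were also mmu-miR-142a-3p at 2.39 and mmu-miR-223-3p at 3.67, while mmu-miR-150-5p at 1813 and mmu-miR-486a-5p at 975.6 were above mmu-miR-342-3p. The part of blood cells in the level of miR-342 was not tested.

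The third list held 8 neuronal miRNAs, all of which passed the filter, and 0 of them had an unadjusted p-value under 0.05 in limma, DESeq2 or edgeR, which with 8 members is close to the background shares of all features (1.86% higher and 2.14% lower, 4.70% and 4.40%). The largest log2 differences were -0.32 ± 0.45 (SE) for mmu-miR-137-3p and -0.24 ± 0.38 (SE) for mmu-miR-138-5p, both miRNAs of synapses, and the median was -0.11. All 3 medians are on the log2(value + 1) scale.

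**Figure D5:**
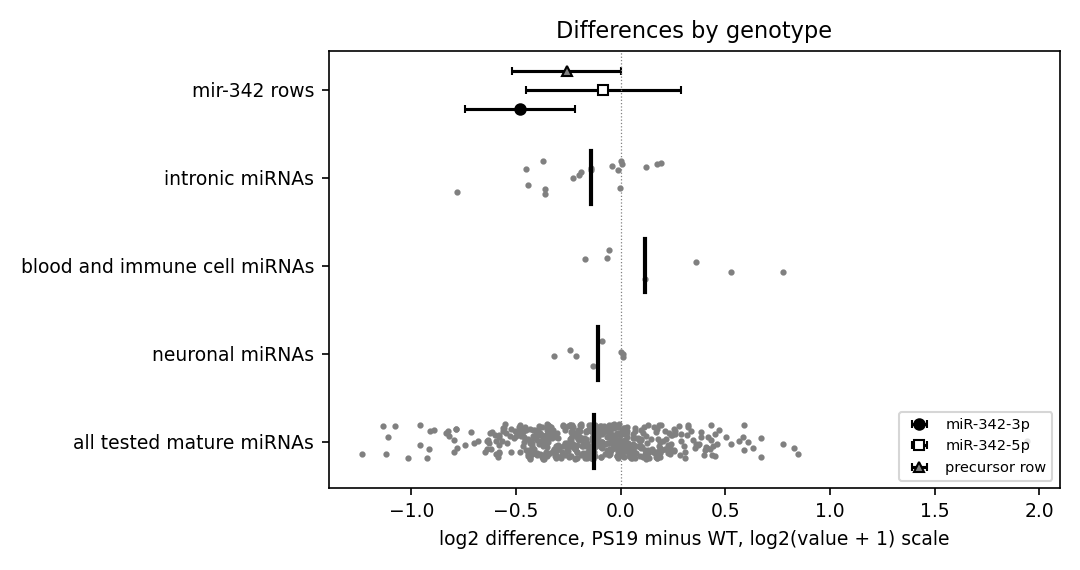
Log2 differences between PS19 and WT for the 3 mir-342 rows (error bars are SE), for the tested members of each list and for all 521 tested mature miRNAs (thick bars are medians). The 3p arm at -0.48 lies inside the cloud of mature miRNAs, and the 5p arm at -0.08 is near the median of -0.13.

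The spread between mice was set against that of other mature miRNAs. Within groups, the SD on the log2 scale was 0.54 for mmu-miR-342-3p and 0.83 for mmu-miR-342-5p. Among the 258 tested mature miRNAs with a mean of at least 100 the median was 0.67, and 201 of them had a larger SD than 3p, against 50 with a larger SD than 5p. The 3p strand was thus among the less variable and the 5p strand among the more variable of these miRNAs, most of which were more abundant than 5p. Over all 521 tested mature miRNAs the median was 0.71, with 436 having a larger SD than 3p and 152 a larger SD than 5p.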

How the data were processed

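NEBNext small RNA libraries of mouse prefrontal cortex, 8 of PS19 and 8 of WT, were analysed. Per the methods of the study and the submitters' processing notes, the authors used STAR 2.5.3a within COMPSRA for alignment, with mm10 as the build named, and compared genotypes with DESeq2 1.42.1. The deposited values are a normalized signal, counts divided by 1 size factor per library. All values (100%) were whole multiples, within 0.01, of the smallest value above 0 in each library, so reads were recovered by division. For WT replicates 4 and 6 the step was close to 1, which makes this check weaker. The table also held the authors' own fold changes and p-values, which were not used. Columns of library values left out numbered 0. Depth was 13.2 M to 23.1 M recovered reads.

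Features with a mean of at least 5 were tested on log2(value + 1) with limma 3.58.1 in R 4.3.3 (trend, genotype only, Benjamini-Hochberg over all 6024). The same fit was also run on simulated data as a self-test. Fold changes on this scale understate low features. Alternatives were DESeq2 1.42.0 and edgeR 4.0.16 on recovered reads, other scalings, pseudocounts and filters, the replicate number, the code letter, and each library left out. The miRNA share was compared by exact permutation over 12870 assignments, and correlations by 100000 permutations. Samples are separate mice by the study's methods, and over the 56 pairs within a group chi-square per degree of freedom was at least 43.5, so none was a duplicate. The members and lists were chosen with earlier results of these data known. Named features were the 3 rows of the hairpin, the 5 features with the highest r with each arm, the mature miRNAs nearest in level, and the members with the largest differences in each of 3 lists.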

Additional observations from a re-analysis of the deposited data

How the results depend on the processing

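The log2 difference of mmu-miR-342-3p ran from -0.70 with the code letter as a term to -0.43 with classes scaled separately over the 7 settings that could change it (the other 4 of 11 return the same value by construction, since a filter leaves a kept row as it is and replicate numbers are balanced over genotypes), and from -0.64 without WT replicate 7 to -0.38 without PS19 replicate 8. That of mmu-miR-342-5p ran from -0.08 to -0.03 over the settings and from -0.26 to 0.14 without each library, 12 of 16 values being negative. That of the precursor row ran from -0.47 with the code letter to -0.20 with classes scaled separately, and from -0.38 without WT replicate 7 to -0.17 without PS19 replicate 8. The difference in the log2 ratio of the arms was -0.40 except among libraries with the letter G (-0.64), and ran from -0.61 to -0.28 without each library. Adjusted p-values under 0.05 were found for 0 features, except in DESeq2 (15 features), and for 0 to 0 features without each library. Unadjusted p-values under 0.05 were found for 241 features, and for 680 with no filter, 136 with a mean of at least 20 (fewer or more were tested), 419 with the replicate number as a block and 124 with the code letter, and ran from 171 to 321 without each library. The share of these features higher in PS19 was 46.5%, against 58.5% scaled to the library total, 56.6% in edgeR and 74.2% with the code letter. The cause was not tested. The sources used here do not say what a replicate number marks. Deviations of same-numbered libraries correlated at r from 0.0446 to 0.456, with 6 of 8 pairs over 0.1 and 2 of 8 PS19 libraries correlating best with their own number, so the numbers were not taken as pairs, although every r was positive. With the number as a linear term 335 features had an unadjusted p-value under 0.05 in limma. The permutations behind the correlations treated all 16 libraries as exchangeable, so their p-values take no account of the replicate number. The replicate block leaves the difference in the arm ratio at -0.40 and that of 5p at -0.08 by construction, while the SE of 5p fell from 0.37 to 0.25 with it or with the number as a linear term, and the SE of 3p from 0.26 to 0.21 and 0.23. Depth limits the 5p strand and the precursor row more than 3p, with as few as 69 and 33 reads in a library.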
